A study of Mus musculus with 2 samples.

Results

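Chemokines are small secreted proteins that direct the migration of leukocytes and other cells, and 10 of their genes were followed here in mouse embryonic fibroblasts with and without p65, the NF-kB subunit encoded by Rela. The genes are Cxcl1, Cxcl5, Cxcl10, Cxcl12, Cxcl14, Cxcl16, Cx3cl1, Ccl2, Ccl5 and Ccl7. They were found by matching the RefSeq transcript of each row of the deposited table to its mouse gene symbol, and all 10 were present among 16881 transcripts. The sources used here do not give clonality, passage or the way of immortalisation. RNA was sequenced from 1 culture of immortalised C57BL/6 fibroblasts of genotype p65+/+ (wild-type) and 1 culture of genotype p65-/- (null), and the labels name no stimulus. With 1 library for each genotype no difference has a replicate check, so no p-value is given, and every interval below covers counting error alone. Wild-type cells and null cells stand below for these single libraries.

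Chemokines are grouped by the spacing of their first cysteines into the CC, CXC and CX3C families. They signal through G protein-coupled receptors on the responding cell, and they are held near their source by heparan sulphate on cell surfaces and matrix. Fibroblasts are a known source of them: some, such as Cxcl12, are made by resting stromal cells, and others, such as Cxcl1, Ccl2 and Cxcl10, are known for induction by inflammatory signals through NF-kB, interferon factors or both.

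The promoters of Cxcl1 and Cxcl10 are shown because both hold matches to the kappa-B motif, the sequence that NF-kB proteins bind, while their transcripts lay in opposite directions in these libraries. That of Ppbp is shown because this neighbouring chemokine gene was lower in null cells by a wide margin. Each is the 250 bases before the annotated start, from RefSeq on GRCm38.p6, on the strand of the gene, with capitals for matches to the kappa-B, ISRE-like and AP-1 motifs on either strand.
Cxcl1, chr5:90890995-90891244, plus strand: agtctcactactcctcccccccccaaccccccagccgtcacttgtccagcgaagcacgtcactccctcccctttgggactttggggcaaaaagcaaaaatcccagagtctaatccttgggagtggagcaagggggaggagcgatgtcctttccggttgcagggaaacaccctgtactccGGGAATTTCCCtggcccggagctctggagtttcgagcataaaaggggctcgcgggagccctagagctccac
Cxcl10, chr5:92348890-92349139, minus strand: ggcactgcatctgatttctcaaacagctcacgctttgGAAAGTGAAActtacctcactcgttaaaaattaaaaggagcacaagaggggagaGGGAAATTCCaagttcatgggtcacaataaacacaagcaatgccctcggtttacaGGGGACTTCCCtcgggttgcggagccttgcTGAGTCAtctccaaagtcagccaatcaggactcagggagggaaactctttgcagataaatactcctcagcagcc
Ppbp, chr5:90768268-90768517, plus strand: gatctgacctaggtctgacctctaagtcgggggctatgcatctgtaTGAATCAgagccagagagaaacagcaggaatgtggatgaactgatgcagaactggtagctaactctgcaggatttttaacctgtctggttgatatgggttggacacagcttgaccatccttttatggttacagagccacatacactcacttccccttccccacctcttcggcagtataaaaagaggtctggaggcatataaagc

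The RefSeq promoter table matched 5 of the 10 members by symbol: Cxcl1, Cxcl10, Cxcl12, Cxcl14 and Cx3cl1. Motifs were searched on both strands from 250 bases before to 50 bases after the start. They were the kappa-B consensus, an interferon-response (ISRE-like) motif (GAAA, any 2 bases, GAAA), the AP-1 motif TGANTCA and the TATA box TATAAA. In Cxcl1 the capitals cover overlapping kappa-B matches, 1 on each strand, from 71 to 61 bases before the start. Cxcl10 held a kappa-B match from 159 to 150 bases before the start and an overlapping pair from 104 to 94, besides an ISRE-like match at 213 to 204 and an AP-1 match at 74 to 68. Cxcl14 held an ISRE-like match, GAAACAGAAA, at 172 to 163 bases before the start. Cx3cl1 held the letters TATAAA ending at the base before the start, and Cxcl12 held no match to any of these motifs in the window. Ppbp held no kappa-B match, an AP-1 match at 204 to 198 bases before the start and the letters TATAAA at 30 to 25 and 8 to 3. A match to these letters was not weighed by its distance from the start. Of 27025 promoters of the same length, 8.18% held the kappa-B motif, 3.49% the ISRE-like motif, 7.93% the AP-1 motif and 14.2% the letters TATAAA. Among the 9642 of these that belong to measured genes the shares were 10.3%, 2.86%, 4.8% and 6.93%.

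The libraries differed in more than Rela. Rela itself was at 90.5 normalised CPM (fragment counts on a common scale set by effective library size) in wild-type and 13.1 in null cells, with 1918 and 198.5 fragments. Depth was 20794476 fragments in wild-type and 15441396 in null cells, and a fragment with 1 counted mate counts as 0.5. All 11 markers of fibroblasts, the labelled cell type, were measured, and summed to 12115 normalised CPM in wild-type and 24758 in null cells. Of these sums Col1a1 supplied 3119 and 6742 and Col1a2 2934 and 7634. The markers did not share a direction: Thy1, Dcn and Pdgfrb were lower in null cells (log2 ratios of -3.10, -0.69 and -0.41) and the others higher. Lum had the highest ratio, 4.54 (3.26 to 6.20), from 5 wild-type fragments. Xist had 956 fragments in wild-type and 2 in null cells, and the Y-linked Eif2s3y had 0 and 138, so sex-linked genes also separated the cultures, and genotype cannot be told apart from embryo or culture. Of the defining markers of other cell types, Ptprc, the pan-leukocyte marker, had 2 and 0 fragments, Pecam1 of endothelium 2 and 1, and Epcam of epithelium 0 and 1. Other markers were not near 0 in both: the endothelial genes Erg and Kdr had 0 and 25 and 69 and 29 fragments, the epithelial genes Krt18 and Cdh1 0 and 23 and 0 and 11, and Csf1r of macrophages 44 and 16. Among 10 macrophage markers, 7 were found and summed to 20.7 normalised CPM in wild-type and 10.03 in null cells. Of these sums Cd14 supplied 17.0 and 4.39 and Cd68 1.37 and 4.06, so these markers lay in opposite directions. The 7 endothelial markers found summed to 3.44 and 3.89, the 6 epithelial ones to 0.118 and 2.81, the 4 of lymphocytes to 0.0472 and 0.231, and the 2 of neutrophils to 0.0944 and 0. Their part in the results below was not tested. In such bulk samples, fewer cells expressing a gene and less RNA per cell cannot be told apart.

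Among the 10 members, mRNA was more often higher than lower in null cells, and Cxcl1 had the largest ratio. All 10 members passed the minimum of 1 CPM on average. In all, 6 were 2-fold or more higher in null cells (Cxcl1, Cxcl14, Ccl5, Cx3cl1, Cxcl5 and Cxcl16), where 12.2% of all 12135 measured genes were. In the other direction 1 member, Cxcl10, was at least 2-fold lower, where 13.7% of measured genes were, and Cxcl12, Ccl2 and Ccl7 lay within 2-fold. At least 4-fold higher were 3 members and at least 4-fold lower 0, against 4.38% and 3.5% of measured genes. Those 3, Cxcl1, Cxcl14 and Ccl5, stood at 0.401, 0.330 and 0.472 normalised CPM in wild-type cells. They passed the minimum only through null cells, so a higher ratio was a condition of their being counted, here and among the 6. Counting intervals of the members lay wholly past 2-fold higher for 5 and past 2-fold lower for 0, against 7.95% and 9.1%. The median log2 ratio of null over wild-type was 1.52 over the members and -0.03 over all measured genes. Summed over the members, mRNA stood at 976 normalised CPM in wild-type and 1918 in null cells, 1.96-fold higher (95% interval 1.93 to 2.0). Without Cxcl1 the sum was 1.67-fold higher (1.64 to 1.70).

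**Figure D1:**
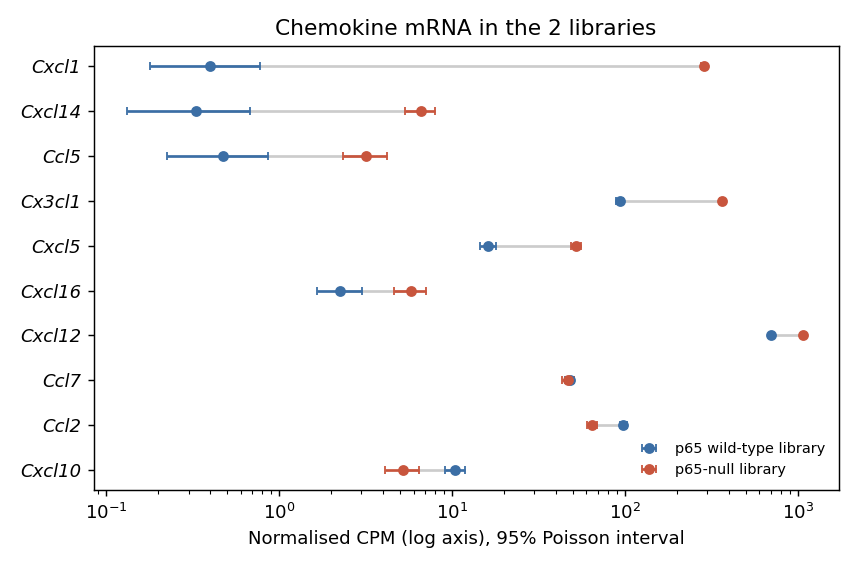
Normalised CPM of each chemokine (log axis) in the p65 wild-type library (blue) and the p65-null library (red), with exact 95% Poisson intervals for counting error. Cxcl1 runs from 0.401 to 286 normalised CPM, while the points of Ccl7 lie on each other at 47.9 and 47.04.

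The neutrophil-attracting members are Cxcl1 and Cxcl5, ligands of Cxcr2. Cxcl1 (NM_008176, GRCm38 chr5:90891245-90893121) had 8.5 fragments in wild-type cells and 4330 in null cells. In deposited units these were 7.41 and 5080.54, and in normalised CPM 0.401 and 286. The log2 ratio was 9.48 (8.53 to 10.65), at percentile 99.98 of the measured genes. Wild-type Cxcl1 thus lay close to the floor of 3 fragments, and its interval of 0.178 to 0.775 normalised CPM sets most of the width of the ratio's interval. In rank by normalised CPM among measured genes, Cxcl1 was number 11950 in wild-type and 543 in null cells.

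Cxcl5 (NM_009141, chr5:90759298-90761625) was already well expressed in wild-type cells, at 16.2 normalised CPM from 342.5 fragments, and stood at 52.3 from 791.5 fragments in null cells. It was 3.23-fold higher (2.85 to 3.68). Its transcript has a GC content of 37.8%, and after correction of the ratios for GC content and length its log2 ratio was 2.72 in place of 1.69.

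The members known for attracting T cells, Cxcl10, Ccl5 and Cxcl16, did not lie on one side. Cxcl10 (NM_021274, chr5:92346638-92348889), a ligand of Cxcr3, was at 10.5 normalised CPM from 222 fragments in wild-type cells and at 5.18 from 78.5 fragments in null cells. It was 2.02-fold lower (1.56 to 2.65), so its interval spans the 2-fold line, and its log2 ratio of -1.02 was -0.89 after the GC and length correction. Ccl5 (NM_013653, chr11:83525778-83530518) was scarce in both, with 10 fragments in wild-type and 48 in null cells, and its log2 ratio was 2.75 (1.75 to 3.90). Cxcl16 (NM_023158, chr11:70454389-70459984), a membrane-anchored ligand of Cxcr6, had 48 and 87.5 fragments and was 2.55-fold higher (1.77 to 3.71). Scaled to ribosomal protein genes it was at a log2 ratio of 0.94. Cxcl16 overlaps Zmynd15 by 552 bases, and 21.6% of the 31-base words of its transcript also occur in transcripts of Zmynd15. Zmynd15 itself was at 0.142 normalised CPM in wild-type and 0.990 in null cells. Art3 likewise holds 9.68% of the words of Cxcl10, at 0.0944 normalised CPM in wild-type cells and 0 fragments in null cells. The sources used here do not say how reads in such overlaps were assigned or whether strand was used.

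The monocyte-attracting neighbours Ccl2 and Ccl7, both ligands of Ccr2, lay within 2-fold. Ccl2 (NM_011333, chr11:82035577-82037452) was at 98.3 normalised CPM from 2083 fragments in wild-type cells and at 64.6 from 978.5 fragments in null cells, a log2 ratio of -0.61 (-0.72 to -0.49). Scaling to ribosomal protein genes took it to -1.01 and the GC and length correction to -0.20. Ccl7 (NM_013654, chr11:82045712-82047525) was at 47.9 and 47.04 normalised CPM from 1016 and 712.5 fragments. Its log2 ratio of -0.03 (-0.17 to 0.11) is the only one of the 10 whose interval holds 0. It lay above 0 under upper quartile scaling (0.09), with the deeper library thinned (0.01) and after the GC and length correction (0.43).

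Of the stromal and membrane-bound members, Cxcl12 (NM_001012477, chr6:117168535-117181368), the ligand of Cxcr4 that retains haematopoietic cells in their niche, had the most fragments of the 10 in both libraries. It was at 706 normalised CPM from 14969 fragments in wild-type and 1082 from 16390 in null cells, a log2 ratio of 0.62 (0.58 to 0.65). Cx3cl1 (NM_009142, chr8:94772180-94782427), called fractalkine, is made as a transmembrane protein that can be shed. It was at 93.7 normalised CPM from 1986 fragments in wild-type and at 365 from 5535.5 fragments in null cells, 3.90-fold higher (3.70 to 4.11), and its log2 ratio of 1.96 was 1.49 after the correction. Cxcl14 (NM_019568, chr13:56288643-56296811), a chemokine of skin and stroma, had 7 fragments in wild-type and 100 in null cells, a log2 ratio of 4.32 (3.23 to 5.67). Among the members at least 4-fold higher, Cxcl14 and Ccl5 thus rest on 10 or fewer wild-type fragments, as does Cxcl1.

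**Figure D2:**
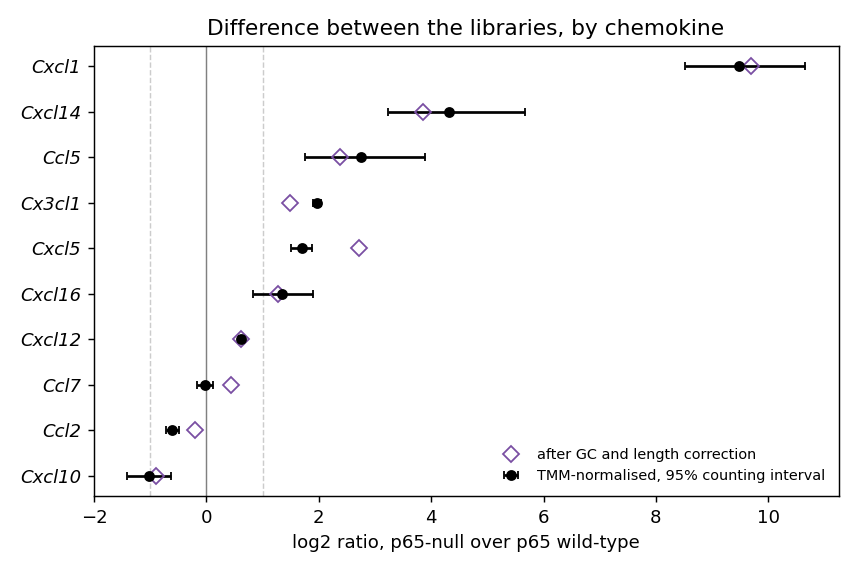
Log2 ratio of p65-null over p65 wild-type for each chemokine, as normalised with its 95% counting interval (black) and after the ratios were corrected for GC content and length (open diamonds). Dashed lines mark 2-fold. Cxcl5 moves from 1.69 to 2.72 with the correction and Cx3cl1 from 1.96 to 1.49.

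Per kilobase of transcript, which lets levels be compared between genes, the order of the members differed between the libraries. In wild-type cells Cxcl12 was at 125 normalised CPM per kb, Ccl2 at 121, Ccl7 at 59.8 and Cx3cl1 at 28.3. Cxcl5 followed at 10.3 and Cxcl10 at 9.57, while Ccl5 (0.887), Cxcl16 (0.839), Cxcl1 (0.421) and Cxcl14 (0.181) were each under 1. In null cells the highest was Cxcl1 at 300 normalised CPM per kb, ahead of Cxcl12 at 192, Cx3cl1 at 110, Ccl2 at 79.5 and Ccl7 at 58.7. Cxcl5 was then at 33.2, Ccl5 at 5.96, Cxcl10 at 4.74, Cxcl14 at 3.61 and Cxcl16 at 2.14. The place of Cxcl12 depends on the isoform assumed. The table lists it under a transcript of 5627 bases, and with the shortest of its 3 annotated RefSeq transcripts, of 1878 bases, it would be at 376 and 576 normalised CPM per kb, above Cxcl1 in both libraries.

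The chemokine genes around Cxcl1 on chromosome 5 did not share a direction. In chromosomal order they are Cxcl5, Ppbp, Pf4, Cxcl3, Cxcl15, Cxcl1 and Cxcl2. Ppbp (chr5:90768518-90770063), which encodes a precursor of the Cxcr2 ligand known as neutrophil-activating peptide and is best known from platelets, lies 6.89 kb beyond Cxcl5. It was at 1127 normalised CPM from 23890 fragments in wild-type cells and at 37.7 from 571.5 fragments in null cells, 29.9-fold lower (27.5 to 32.5). Per kilobase it stood at 1041 in wild-type cells, above every one of the 10 members, and at 34.8 in null cells. Of 8 other genes known from platelets, a list added after the values were seen, 5 were found, and they summed to 3.47 normalised CPM in wild-type and 13.8 in null cells. Itga2b, the highest of them, had 51.5 and 193.5 fragments. Pf4, next to Ppbp, had 9 and 2 fragments. Cxcl3 had 24.5 and 2, a log2 ratio of -3.13 (-6.25 to -1.12), and Cxcl2, 10.8 kb beyond Cxcl1, had 4.5 and 0. Cxcl15 had 0 and 15.5 fragments. Cxcl3, Cxcl2, Cxcl15 and Pf4 all fell under the expression minimum. The Cxcr2 ligands of this locus, Cxcl1, Cxcl2, Cxcl3, Cxcl5 and Ppbp, together were 3.05-fold lower in null cells (2.96 to 3.14), since Ppbp outweighed Cxcl1.

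**Figure D3:**
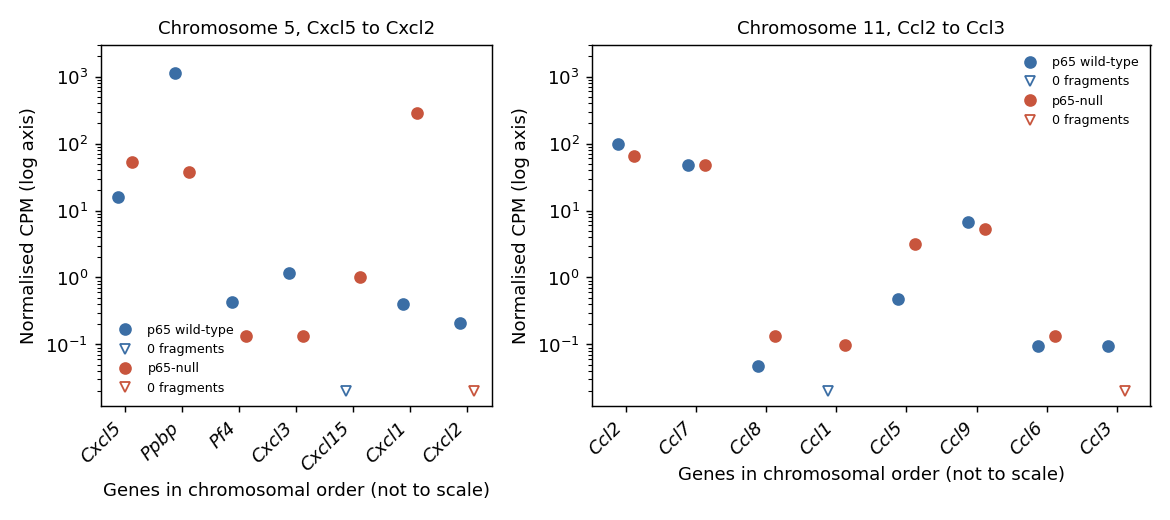
Normalised CPM (log axis) of the chemokine genes found in the table, in chromosomal order, on chromosome 5 from Cxcl5 to Cxcl2 and on chromosome 11 from Ccl2 to Ccl3, in the p65 wild-type (blue) and p65-null (red) libraries. Open triangles mark 0 fragments and sit at an arbitrary height. Ppbp is at 1127 and 37.7, whereas Cxcl1 is at 0.401 and 286.

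On chromosome 11, Ccl2 and Ccl7 lie 8.26 kb apart, with log2 ratios of -0.61 and -0.03, whose intervals do not overlap. Ccl8, further along, had 1 wild-type and 2 null fragments, and Ccl1 had 0 and 1.5. Ccl5 lies 42.4 kb before Ccl9, a gene at 6.82 and 5.22 normalised CPM with a log2 ratio of -0.39 (-0.80 to 0.02). Corrected for GC content and length, that ratio was 0.32. Cx3cl1 on chromosome 8 lies 27.0 kb before Ccl17, which was at 1.16 and 1.55 normalised CPM with a log2 ratio of 0.42 (-0.46 to 1.30).

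Among the 28 other chemokine genes looked up, 17 were found and 5 were measured. Of these, 1, Ppbp, was at least 2-fold lower in null cells, beside 13.7% of all measured genes. None was at least 2-fold higher, beside 12.2%. Counted over all 27 chemokines found, the total was 2119 normalised CPM in wild-type and 1969 in null cells, 1.08-fold lower (1.06 to 1.09). This log2 ratio of -0.11 holds for the main scaling only, and the interval does not cover the choice of scaling. The median over all measured genes moved from -0.03 to 0.09 with upper quartile factors and -0.44 with ribosomal protein scaling, shifts as large as this ratio. The direction of the total thus depends on the scaling. The make-up behind the total was different. Ppbp supplied 53.2% of wild-type chemokine fragments (exact 95% interval 52.7% to 53.7%) and 1.92% of null ones (1.76% to 2.08%). Cxcl12 supplied 33.3% and 54.9%, Cx3cl1 4.42% and 18.6%, and Cxcl1 0.0189% (0.00842% to 0.0366%) and 14.5% (14.1% to 14.9%). Ccl2 supplied 4.64% and 3.28%, Ccl7 2.26% and 2.39%, and Cxcl5 0.763% and 2.65%.

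**Figure D4:**
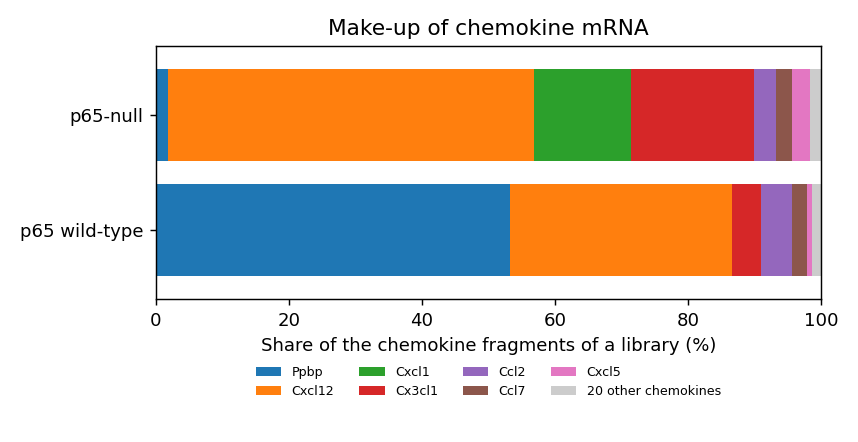
Share of the chemokine fragments of each library (percent, horizontal axis) supplied by Ppbp, Cxcl12, Cxcl1, Cx3cl1, Ccl2, Ccl7, Cxcl5 and, in grey, all other chemokines found. Ppbp takes 53.2% in the p65 wild-type bar and 1.92% in the p65-null bar, where Cxcl12 takes 54.9%. Shares are not adjusted for transcript length.

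Chemokine mRNAs are known for rapid decay through AU-rich elements, so the pentamer ATTTA was counted in the part of each transcript after the stop codon, a choice made after the ratios were known. Cxcl1 held 7 copies in 592 bases, or 11.8 per kb, a density reached by 0.402% of 10957 measured genes, whose median was 1.37 per kb. The densest 30 bases, bases 79 to 108 after the stop codon, are shown with the pentamers in capitals, beside those of Cxcl12, which held 4 copies in 5188 bases.
Cxcl1: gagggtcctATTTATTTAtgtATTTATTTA
Cxcl12: aagcaaatccgaATTTAaataggacATTTA

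The other members spread from none to moderate density. Ccl7 had 4.60 copies per kb, Cxcl5 4.50, Ccl2 3.64, Cxcl10 2.74, Cxcl16 1.41, Cxcl12 0.771 and Cx3cl1 0.534, whereas Cxcl14 and Ccl5 had none. Members at least 2-fold higher in null cells thus lie at both ends of this order. Of 11 measured genes for proteins that bind such elements or otherwise control decay of cytokine mRNA, none was at least 2-fold higher in null cells, and 2, Rc3h2 and Hnrnpd, were at least 2-fold lower, at log2 ratios of -1.35 and -1.01. Of all measured genes, 12.2% were higher and 13.7% lower by that margin. After the GC and length correction Rc3h2 and Hnrnpd were at -0.35 and -0.11, so both calls ended, while Khsrp, a gene for a protein that promotes decay, went from -0.65 to -1.06 and past 2-fold lower. The median of the list was -0.65, or 0.05 after the correction.

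Of 19 measured transcription factors known at chemokine promoters, 5 were at least 2-fold higher in null cells and 3 lower, beside 12.2% and 13.7% of all measured genes. The higher ones whose intervals began farthest from 0 were of the interferon response. These were Irf7 with a log2 ratio of 4.47 (3.18 to 6.13), Irf9 of 2.61 (2.28 to 2.96) and Stat2 of 1.77 (1.50 to 2.04). Irf7 had 5 wild-type fragments and stood at 0.236 normalised CPM in wild-type and 5.22 in null cells. It passed the minimum only through null cells, so a higher ratio was a condition of its being counted among the 5. The lower ones were Rela at -2.79 (-3.01 to -2.58), Rel at -1.37 (-2.15 to -0.65) and the AP-1 subunit gene Fosl1 at -1.04 (-1.20 to -0.88). Rela is the gene that the null genotype disrupts, so its place among the 3 goes with the design. After the correction Rel was at -0.56, and Fos, an AP-1 subunit gene, went from 1.21 to 0.92, so both calls ended. This left 4 higher and 2 lower, the lower being Rela and Fosl1. Of all 11990 corrected genes, 1290 were higher and 1165 lower by that margin. The median of the list was 0.21, or 0.02 after the correction.

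Receptors through which fibroblasts are induced to make chemokines were mostly within 2-fold, 11 of 13 measured. Il1r1, the signalling receptor for interleukin-1, was 2.79-fold higher (2.49 to 3.13), at 60.2 against 21.6 normalised CPM. Its partner Il1rap was 3.69-fold lower (3.05 to 4.51), at 8.28 against 30.6, and its log2 ratio of -1.88 was -1.10 after the GC and length correction. Tlr4, the receptor for lipopolysaccharide, went from 0.08 to 1.13 with the correction, past 2-fold higher. Corrected, 2 of the receptors were thus higher and 1 lower, beside 1290 and 1165 of all 11990 corrected genes. Uncorrected, the receptor counts were 1 and 1, beside 12.2% and 13.7% of all measured genes. The median of the list was 0.08, or 0.02 after the correction.

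Few receptors for the chemokines themselves passed the expression minimum. Of 24 looked up, 14 were found and 2 measured, Ackr3 and Cxcr6. Ackr3, a scavenging receptor for Cxcl12, was at 29.7 normalised CPM in wild-type and 22.1 in null cells, a log2 ratio of -0.43 (-0.62 to -0.23). Cxcr6, the receptor for Cxcl16, had 19 and 23 fragments, and its log2 ratio of 0.76 (-0.18 to 1.72) was 1.21 after the correction. Cxcr4, the signalling receptor for Cxcl12, had 1 wild-type and 8 null fragments, and Cx3cr1, the receptor for Cx3cl1, had 13 and 11.

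Enzymes that cleave chemokines and genes for the heparan sulphate that presents them were also counted. Among 6 measured genes of cleavage, 1 was at least 2-fold higher and none lower by that margin, beside 12.2% and 13.7% of all measured genes. The higher one was Mmp9, a gelatinase that trims several chemokines, at 12.4-fold (9.99 to 15.6). Adam10 and Adam17, the sheddases of Cx3cl1 and Cxcl16, had log2 ratios of -0.98 (-1.16 to -0.80) and -0.23 (-0.36 to -0.10), or -0.21 and 0.18 after the correction. Of 18 measured heparan sulphate genes, 2 were at least 2-fold higher in null cells and 3 lower, beside 12.2% and 13.7% of all measured genes, with a median of 0.06. Sulf2, an extracellular enzyme that removes 6-O-sulphate groups, was 16.5-fold higher (14.4 to 18.9). The sulphotransferase gene Hs3st1 had 0 wild-type and 50 null fragments. It passed the minimum only through null cells, so a higher ratio was a condition of its being counted. Hs3st1 was 23.3-fold higher with the 0 set to the floor of 3 fragments, and its counting interval starts at 18.3-fold. The lower ones were the chain polymerase gene Ext1, the 6-O-sulphotransferase gene Hs6st2 and the epimerase gene Glce, with log2 ratios of -1.17, -1.20 and -1.17. After the correction these were -0.56, -0.78 and -0.61, so all 3 calls ended, while the syndecan gene Sdc3 went from -0.68 to -1.07 and past 2-fold lower.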

How the data were processed

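Total RNA of 2 cultures was sequenced, 1 library per genotype, on an Illumina instrument, per the labels. Of tools, the submitters' processing notes list HOMER, edgeR, STAR 2.4 and bcl2fastq 2.16, with no roles, and mm10 as the build. The sources used here do not give the counting rule, strand or annotation release. The deposited values are a scaled signal: both columns sum to about the same total, 18117934 and 18117930, and 100% of the values low enough to check (11224 and 11427) came out whole when divided by the column's step (0.436 for wild-type, 0.587 for null), within 0.0055 units. Even multiples made up 72.8% and 75.7% of those from 1 to 20, so 2 steps were taken as 1 fragment, giving 20794476 wild-type and 15441396 null fragments. No count test was run on these reads and none gives calls, since no residual degree of freedom exists with single libraries. The plan allowed for raw counts or for reads recovered in this way.

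Transcripts were matched to symbols through RefSeq (16743) and GENCODE M21 (83); 55 had no match. Libraries were scaled with the trimmed mean of M values (TMM) in edgeR 4.0.16 (factors 1.02 and 0.981). Genes averaging 1 CPM or more were measured. Intervals are exact: Clopper-Pearson for ratios and shares, Poisson for levels, at 95%. Fragments carry no molecular tags, so intervals cover counting error only. The GC and length correction was a loess fit (span 0.3) over measured genes with a matched GENCODE transcript. Other settings were scaling by total, by upper quartile, by ribosomal protein genes or with DESeq2 1.42.0, thinning, other minima, a prior count, the interval end and the mean. Correction of the lists was added after seeing the data. The ratio step was tested on simulated counts. The plan named all 10 members, Rela, chemokine neighbours and the genes nearest in level. In each list it also named up to 3 genes higher and 3 lower whose intervals began farthest from 0. The members and lists were chosen with earlier results of these data known. Receptors, cleavage genes, cell type markers, Khsrp, Sdc3, Fos, Tlr4 and Zmynd15, Art3, Xist and Eif2s3y beyond that rule were named after their values were seen. The gene nearest in level to Cxcl12 is not reported here. No protein sequences were used here, so the planned protein description was not made.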

Additional observations from a re-analysis of the deposited data

How the results depend on the processing

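Under 9 alternatives (8 for Cxcl14, Cxcl16 and Ccl5, which fall under a minimum of 5 CPM), Cxcl1, Cxcl5, Cxcl12, Cxcl14, Cxcl16, Cx3cl1 and Ccl5 stayed above 0 and Cxcl10 and Ccl2 below, while Ccl7 lay above 0 in 3. The number at least 2-fold higher was 6, but 3 with a minimum of 5 CPM, where 7 members were left, 5 with ribosomal protein scaling and 5 when the whole interval had to pass. The number at least 2-fold lower was 1, but 0 with upper quartile factors, a thinned wild-type library, a prior count of 2, the interval end nearest 0 or the GC and length correction, and 2 with ribosomal protein scaling (Cxcl10 and Ccl2). The cause was not tested. With ribosomal protein scaling, 3017 of all 12125 measured genes were also lower and 900 higher by 2-fold or more. Upper quartile factors gave 1418 lower and 1731 higher of 12141, and the GC and length correction 1165 and 1290 of 11990. In the main setting these were 1667 and 1475 of 12135. The median log2 ratio of the members ranged from 0.62 (minimum of 5 CPM) to 1.64 (upper quartile factors), and the mean in its place was 2.05. Ratios of single members spread more widely, from -1.02 for Cxcl10 to 9.48 for Cxcl1. The median over all measured genes was -0.03, but 0.09 with upper quartile factors and -0.44 with ribosomal protein scaling. The share of higher among genes 2-fold apart was 46.9%, against 55.0%, 23.0% and, after the GC and length correction, 52.5%. No paired analysis was possible because each genotype has 1 library, and for the same reason no library could be left out. Depth limits Cxcl1, Cxcl14 and Ccl5, whose wild-type levels rest on 8.5, 7 and 10 fragments.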

Other observations

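The measured genes nearest to the chemokines in the plane of their log2 levels in these 2 libraries were also listed, leaving out predicted genes. With 2 libraries, likeness means only a similar level in each. Cxcl1 had no close companion: the nearest were the proteoglycan gene Fmod at a distance of 1.08 log2 units (0.708 and 176 normalised CPM), and the secreted Wnt antagonists Sfrp2 at 1.48 (0.377 and 103) and Sfrp1 at 1.50 (1.13 and 304). Others had nearer neighbours. Cx3cl1 lay 0.07 from Smoc2, a matricellular protein gene at 97.4 and 376 normalised CPM. Cxcl5 lay 0.12 from the keratin gene Krt19 at 16.8 and 48.6, and Cxcl14 0.14 from Bend4 at 0.330 and 7.26. Ccl2 lay 0.01 from Eif2b1 at 97.4 and 64.8, and Ccl7 0.02 from Tmem11 at 48.3 and 46.5. Cxcl10 lay 0.03 from Zdhhc2, Cxcl16 0.06 from Ankrd6 and Ccl5 0.03 from Dipk1c.

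Of the remaining measured chemokines, Ccl25 and Ccl27a had log2 ratios of -0.49 (-1.08 to 0.08) and 0.53 (-0.23 to 1.30), with intervals that hold 0, as those of Ccl17 do. The interferon-inducible Cxcl9, which shares the receptor Cxcr3 with Cxcl10, had 0 wild-type and 3 null fragments. Cxcl11, listed here under a non-coding RefSeq transcript, had 1 and 0.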
